A study of Mus musculus with 8 samples.

Results

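The genes of the red cell membrane skeleton and band 3 complex were examined in S0 cells of the E12.5 mouse fetal liver. The members were chosen by name as spectrin, ankyrin, protein 4.1, protein 4.2, band 3, Rh and Kell genes, and 8 of the 10 that the rule counts are reported here (Sptb, Ank1, Slc4a1, Epb41, Epb42, Rhag, Rhd and Kel). The other 2 were not analysed here. The table held 52636 gene identifiers, of which 17378 had enough counts to be tested, and all 8 members were among these. S0 cells are the least mature subset separated by FACS, negative for non-erythroid lineage markers, for CD71 and for Ter119. RNAseq libraries were compared between 4 WT embryos and 4 DKO embryos that lack Vps13a and Vps13c, on a C57BL/6J background. The Vps13a allele was a constitutive whole-body deletion of 1 exon, derived from the tm1a allele by Flp and then β-actin-Cre. The Vps13c allele was an earlier knockout, also raised from sperm of the European Mutant Mouse Archive, whose design the text used here does not describe. No agent was given. DKO embryos came from matings of Vps13a+/-/Vps13c-/- mice, which give no embryo with intact Vps13c, so the WT embryos were not their littermates. Each library was treated as 1 embryo, which the sources do not state, and p-values measure the spread between these libraries.

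The mature red cell is held in shape by a mesh of spectrin tetramers beneath the lipid bilayer. Ankyrin and protein 4.2 tie the mesh to band 3, the chloride-bicarbonate exchanger, and protein 4.1 fastens the ends of spectrin to short actin filaments at junctions that also carry glycophorin C. The Rh proteins and their partner the Rh-associated glycoprotein sit in the ankyrin complex, while Kell is joined to XK, the lipid scramblase that binds VPS13A. Loss of VPS13A or of XK in people is known for misshapen red cells (acanthocytes). These genes are switched on progressively as erythroid cells mature.

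The deposited counts summed to between 36981439 and 50886469 per library. Values are normalized counts, that is counts scaled by the TMM method to the mean effective library size, and the genotypes were contrasted by the quasi-likelihood test of edgeR, with p-values adjusted by Benjamini and Hochberg's method over all genes tested. A gene is said to have risen or fallen when its adjusted p was below 0.05. Vps13a fell in DKO, with 1943 ± 130 normalized counts in WT libraries against 794 ± 194 (SD, n = 4, edgeR adjusted p = 0.0025), whereas Vps13c counted over the whole gene did not separate the genotypes. The erythroid label was checked with Klf1, the master activator of red cell genes, at between 10691 and 14437 normalized counts across WT libraries and between 9623 and 17171 across DKO libraries. The summed erythroid list (12 genes, of which 1 rose) ranged from 70305 to 130590 in WT and from 51840 to 143870 in DKO. That was below the hepatoblast sum in every library. Cd36 of this list had at most 77.8 normalized counts, in DKO 1. Markers of other cells were also present. The summed hepatoblast list (12 genes) ranged from 596180 to 823930 in WT and from 209220 to 746530 in DKO with none of its genes at 0, and 0 of its 12 genes passed edgeR's test, although 4 were lower at an unadjusted p under 0.05 and with DESeq2. The mesenchyme list (9 genes, of which 8 rose) ranged from 2159 to 5995 in WT and from 13249 to 46716 in DKO. The neutrophil and mast cell list (8 genes, of which 1 rose and 4 fell) ranged from 104750 to 137230 in WT and from 5937 to 47914 in DKO, and the megakaryocyte list (10 genes, of which 1 fell) from 70423 to 84910 in WT and from 50100 to 140980 in DKO. Of the macrophage list (10 genes, 8 tested, of which 1 fell) Cd163 was at 0 in every library, and of the endothelial list (9 genes) 2 fell. The part of these cells in the results was not tested. The libraries also differed in sex. The Y-linked gene Ddx3y had between 2911 and 3354 normalized counts across WT, 2516 for DKO 3 and at most 41.0 in the other 3 DKO libraries, so that sex and genotype cannot be told apart outside DKO 3.

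Of the 8 genes, Epb41, the protein 4.1 gene, was the only one that passed the test, and it fell by 0.31 on the log2 scale in DKO S0 cells. The other 7 were more uneven among the DKO libraries than among the WT libraries, with DKO 2 lowest and DKO 4 highest throughout. Wider spread in DKO was not particular to them. Over all genes tested, pairs of DKO libraries differed by 55.7 to 128.5 in chi-square per gene, and pairs of WT libraries by 18.27 to 41.63. Among the 7 members other than Epb41, Rhag, Rhd, Kel, Ank1 and Sptb had log2 fold changes above 0 (0.12 to 0.59) and Slc4a1 and Epb42 below 0 (-0.45 and -0.23), and none of these passed. Thus 1 of 8 members fell and 0 rose by edgeR's adjusted p, where 10.8% of all genes tested fell and 10.7% rose. At an unadjusted p under 0.05 the edgeR test counted 2 members, Epb41 and Rhag, as did DESeq2 at an adjusted p under 0.05. Of the 20449 genes with an adjusted p, DESeq2 counted 2777 higher and 2658 lower, so 2 of 8 is near the share of all genes. The share of all genes at the unadjusted edgeR p was not counted. By edgeR or DESeq2, 0 members passed with a log2 fold change beyond 1 in either direction, as 8.63% of all genes did by edgeR. The median log2 fold change of the members was 0.21, beside 0.03 for all genes tested. This median was -0.011 without DKO 4, 0.39 without DKO 2 and 0.12 without WT 4. In sorted bulk cells, fewer cells expressing a gene and less RNA per cell cannot be told apart.

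**Figure D1:**
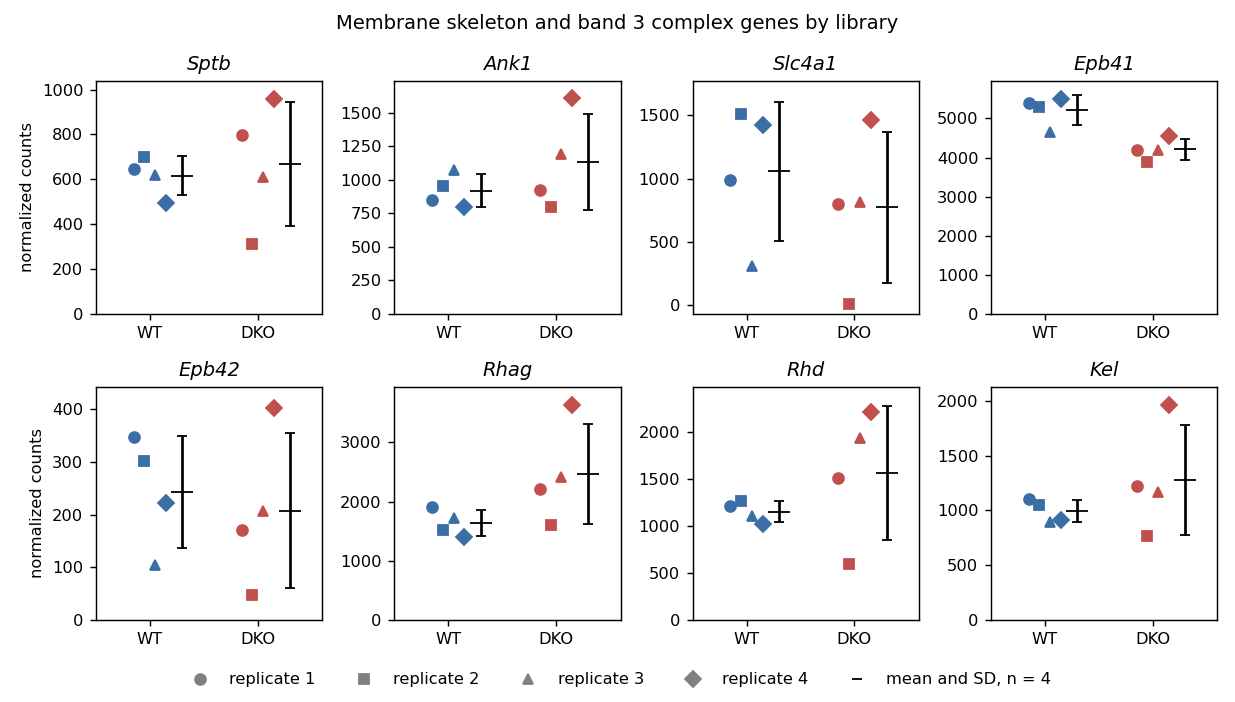
Normalized counts of each member in every library (y axis, linear from 0), with WT libraries in blue, DKO libraries in red, a marker shape per replicate number, and the mean and SD (n = 4) in black. DKO 2 (square) is the lowest and DKO 4 (diamond) the highest DKO library in all 8 panels, and Epb41 is the 1 panel in which the WT and DKO points do not overlap.

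The spectrin mesh and its anchors were considered first. Sptb encodes the erythroid beta spectrin chain (ENSMUSG00000021061.15, chr12:76580488-76710547 of GRCm38, minus strand). Its normalized counts were 647, 700, 617 and 495 in WT 1 to WT 4, and 798, 309, 609 and 956 in DKO 1 to DKO 4. The DKO libraries lay on both sides of the WT range, with 2 above it, 1 below it and 1 inside it. Over the genotypes the log2 fold change was 0.12 (standard error, SE, 0.30, 95% interval -0.56 to 0.80, edgeR adjusted p = 0.812), and without DKO 4 it was -0.10.

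Ank1 encodes ankyrin-1, the adaptor between spectrin and band 3 (ENSMUSG00000031543.18, chr8:22974844-23150497, plus strand). Its normalized counts were 850, 954, 1077 and 795 in WT 1 to WT 4, and 925, 800, 1195 and 1614 in DKO 1 to DKO 4. DKO 3 and DKO 4 were above every WT library and the other two DKO libraries were within the WT range. Its log2 fold change was 0.30 (SE 0.22, 95% interval -0.18 to 0.78, edgeR adjusted p = 0.348), and without DKO 4 it was 0.082. An antisense gene, Gm15816, shares 6.37% of the exon bases of Ank1 on the opposite strand, and since no source used here says whether counting used strand, its reads cannot be told apart from those of Ank1 there. Its own value was at most 20 normalized counts in any library.

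Epb41 encodes protein 4.1R, the clamp between spectrin and actin (ENSMUSG00000028906.16, chr4:131923413-132075321, minus strand). It had normalized counts of 5409, 5282, 4660 and 5497 in WT 1 to WT 4, and 4201, 3881, 4195 and 4556 in DKO 1 to DKO 4. All 4 DKO values lay under the lowest WT value, as was so for 14.6% of all genes tested. WT averaged 5212 ± 379 and DKO 4208 ± 276 (SD, n = 4 per genotype), and the DKO mean was 0.807 of the WT mean. This is a log2 fold change of -0.31 (SE 0.08, 95% interval -0.50 to -0.12, edgeR adjusted p = 0.0293). The exact two-sided permutation test over the 70 arrangements of the libraries gave p = 0.0286, the smallest that 4 against 4 allow, and 0.229 after adjustment over the 8 members. The direction was the same under all 19 alternative settings (-0.36 to -0.20), but the edgeR adjusted p was above 0.05 when WT 1, WT 2, WT 4 or DKO 2 was left out (0.0818, 0.0752, 0.0779 and 0.0646) and under upper-quartile scaling (0.0984, log2 fold change -0.20), which moved the median of all genes by 0.11. It was 0.0845 with DKO 3 as the only DKO library, and in all Epb41 did not pass in 7 of the 19 settings. Genes on the opposite strand, Gm10300 and Gm13063, share 0.89% and 0.57% of its exon bases.

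Band 3 and protein 4.2 showed the widest spread. Slc4a1 encodes band 3 (ENSMUSG00000006574.15, chr11:102348824-102366203, minus strand), the anion exchanger that gives ankyrin its hold on the membrane. Its normalized counts were 985, 1515, 308 and 1422 in WT 1 to WT 4, and 799, 10.5, 811 and 1465 in DKO 1 to DKO 4. WT 3 and DKO 2 were each the lowest library of their genotype, and the value in DKO 2 rested on 9 deposited counts. The highest library was 4.93-fold above the lowest in WT and 140-fold above it in DKO. DKO differed from WT by a log2 fold change of -0.45 (SE 0.90, 95% interval -2.47 to 1.56, edgeR adjusted p = 0.758), an interval that reached past -1 and past 1. It was -0.049 without DKO 2 and -0.97 without DKO 4.

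Epb42 encodes protein 4.2, which binds band 3 and ankyrin (ENSMUSG00000023216.13, chr2:121017891-121037072, minus strand). Its normalized counts were 347, 301, 103 and 222 in WT 1 to WT 4, and 170, 47.7, 208 and 403 in DKO 1 to DKO 4. The lowest libraries were again WT 3 and DKO 2, with a 3.35-fold range in WT and an 8.46-fold range in DKO. DKO differed from WT by a log2 fold change of -0.23 (SE 0.58, 95% interval -1.52 to 1.06, edgeR adjusted p = 0.812), and without DKO 2 it was 0.095.

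The blood group proteins of the complex gave the largest positive log2 fold changes among the members. Rhag encodes the Rh-associated glycoprotein, a gas and ammonium channel that the Rh protein needs to reach the surface (ENSMUSG00000023926.7, chr17:40811126-40840754, plus strand). It had normalized counts of 1907, 1525, 1721 and 1397 in WT 1 to WT 4, and 2209, 1604, 2420 and 3636 in DKO 1 to DKO 4. All DKO libraries except DKO 2 were above every WT library. WT averaged 1638 ± 224 and DKO 2467 ± 853 (SD, n = 4 per genotype). Rhag had a log2 fold change of 0.59 (SE 0.22, 95% interval 0.10 to 1.09), with an unadjusted edgeR p of 0.0242 and an edgeR adjusted p of 0.0855, so it did not pass. With DESeq2 the adjusted p was 0.0484, and without DKO 2 the edgeR adjusted p was 0.0276 (log2 fold change 0.75). Without DKO 4 the log2 fold change was 0.34 (edgeR adjusted p = 0.179).

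Rhd encodes the Rh polypeptide, the blood group protein that pairs with Rhag (ENSMUSG00000028825.7, chr4:134864536-134896172, plus strand). Its normalized counts were 1215, 1258, 1106 and 1016 in WT 1 to WT 4, and 1511, 590, 1933 and 2214 in DKO 1 to DKO 4. DKO 2 was below every WT library and the other three DKO libraries were above every one. Over all 8 libraries the log2 fold change was 0.44 (SE 0.33, 95% interval -0.29 to 1.17, edgeR adjusted p = 0.363). Without DKO 2 it was 0.71 (edgeR adjusted p = 0.0156), and without DKO 4 it was 0.23 (edgeR adjusted p = 0.679).

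Kel encodes Kell, a surface endopeptidase joined to XK by a disulfide bond (ENSMUSG00000029866.13, chr6:41686330-41704339, minus strand). Its normalized counts were 1106, 1053, 897 and 916 in WT 1 to WT 4, and 1220, 764, 1166 and 1966 in DKO 1 to DKO 4. The pattern was that of Rhd, with DKO 2 below and the other three DKO libraries above every WT library. Kel had a log2 fold change of 0.37 (SE 0.25, 95% interval -0.19 to 0.92, edgeR adjusted p = 0.319), and without DKO 4 it was 0.082.

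**Figure D2:**
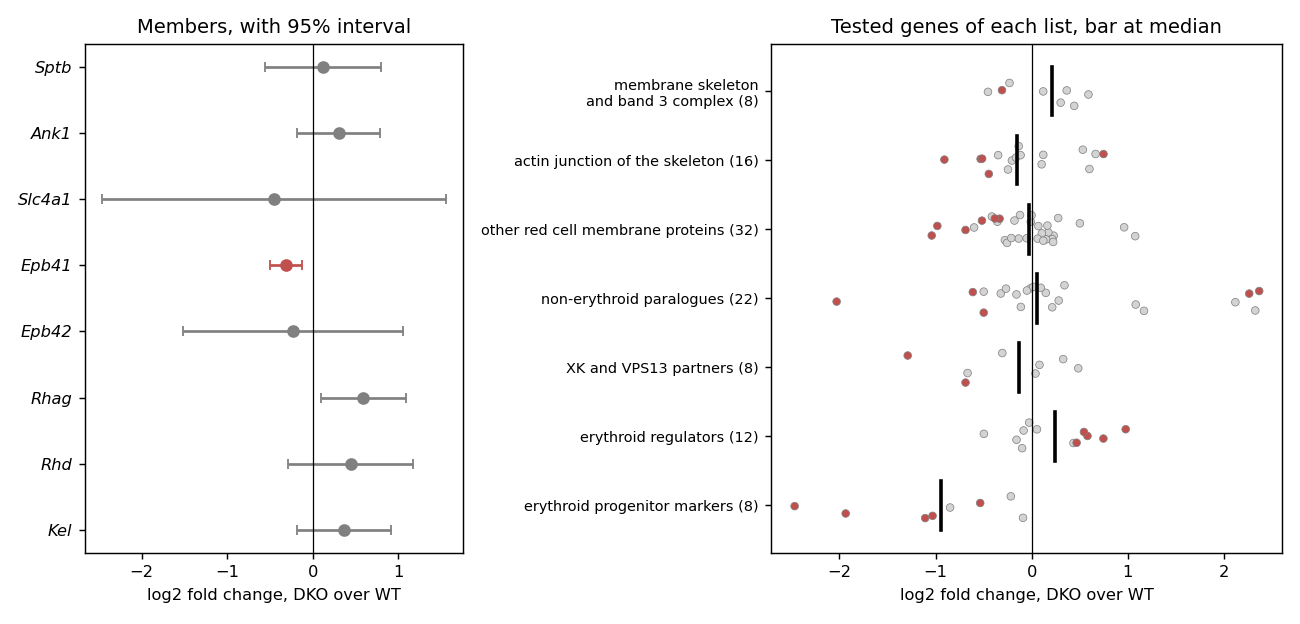
Left, log2 fold change (DKO over WT) of each member with its 95% interval. Right, the same quantity for every tested gene of the membrane lists, regulators and progenitor markers, 1 point per gene with the number tested in brackets and a black bar at the median. Red points passed an edgeR adjusted p of 0.05, which among the members was Epb41 at -0.31.

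The exact permutation test of each member over the 8 libraries gave p = 0.0286 for Epb41 and 0.0857 for Rhag, and between 0.343 and 1 for the others. For 4 members (Sptb, Ank1, Epb41 and Kel) the 95% interval of the log2 fold change lay within -1 and 1. For Slc4a1, Epb42, Rhag and Rhd it reached past 1, and for Slc4a1 and Epb42 past -1 as well, so that differences of that size lay within the interval.

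The members moved together from library to library within DKO. DKO 2 was the lowest and DKO 4 the highest DKO library for 8 of 8 members, while 6.55% of all genes tested had that order. This order was noted after the values were seen, and it was also found for 8 of 8 members when counts were divided by library totals alone. It held for 4 of the 16 genes of the actin junction, 7 of 32 other red cell membrane proteins and 0 of 22 non-erythroid relatives of the members. It also held for 8 of 10 megakaryocyte markers, whose sum was 50100 in DKO 2 and 140980 in DKO 4, and for 6 of 12 erythroid markers. In WT the lowest library was WT 3 for 4 members (Slc4a1, Epb41, Epb42 and Kel) and WT 4 for the other 4. The adult globins, the hemoglobin genes of definitive red cells, summed to 33864, 75419, 14335 and 48635 in WT 1 to WT 4 and to 42787, 7733, 42247 and 84776 in DKO 1 to DKO 4. Their lowest libraries were thus also WT 3 and DKO 2, and their highest DKO library was also DKO 4. The part of cell maturity and cell mixture in this order was not tested.

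**Figure D3:**
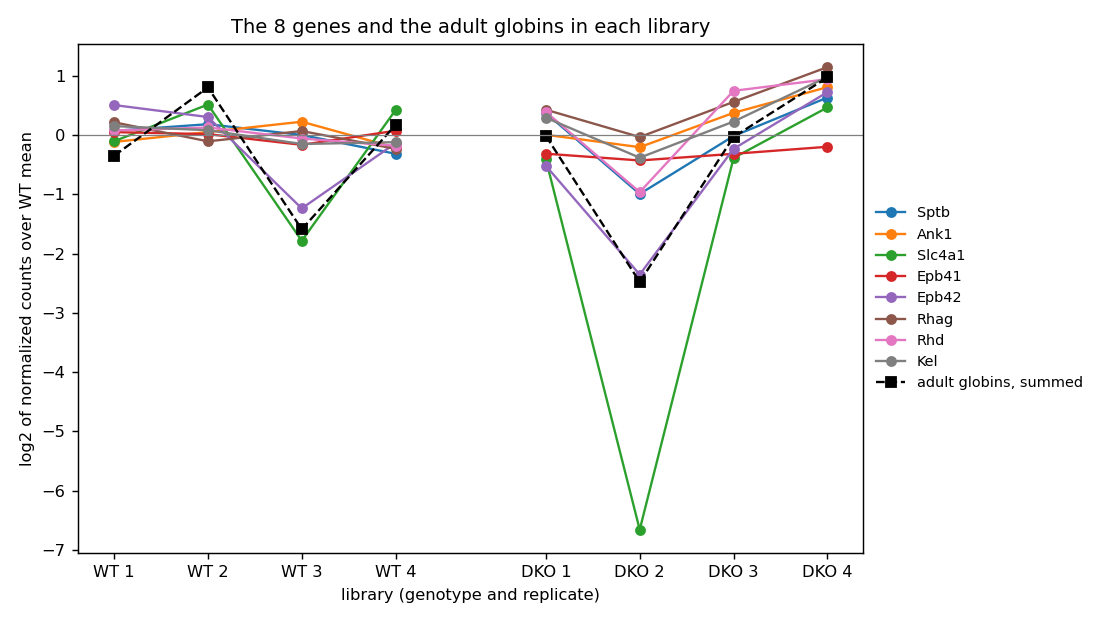
Log2 of each member's normalized count over its WT mean in the 4 WT and 4 DKO libraries (x axis), with the summed adult globins as a black dashed line. Lines only join the values of 1 gene, since libraries have no order. Slc4a1, Epb42 and the globins are lowest in DKO 2 and next lowest in WT 3, whereas Epb41 stays near its genotype's mean in every library.

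The members differed in how far they varied between libraries, and Epb41 varied least in both genotypes. It still had the DKO order of the other members, with DKO 2 lowest and DKO 4 highest. The coefficient of variation of Epb41 was 7.26% in WT and 6.55% in DKO. That of Slc4a1 was 52.1% and 77.2%, and that of Epb42 was 43.8% and 71.2%. The remaining 5 members lay between 9.52% (Rhd) and 14.1% (Sptb) in WT, and between 31.8% (Ank1) and 45.4% (Rhd) in DKO. Over all genes tested the DKO libraries also differed more among themselves than the WT libraries did. No test of these spreads was made.

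Levels were compared between genes per kilobase of merged exons. In WT the order was Rhd at 721 ± 68.6 normalized counts per kilobase, Rhag at 700 ± 95.6, Kel at 358 ± 37.01, Epb41 at 327 ± 23.7, Slc4a1 at 216 ± 113, Ank1 at 68.0 ± 9.20, Sptb at 50.6 ± 7.15 and Epb42 at 44.9 ± 19.7 (SD, n = 4). Between neighbours, the WT libraries did not overlap for Rhag and Kel or for Ank1 and Sptb, and all other neighbours overlapped. In DKO the order was Rhag at 1055 ± 364, Rhd at 980 ± 445, Kel at 461 ± 181, Epb41 at 264 ± 17.3, Slc4a1 at 158 ± 122, Ank1 at 83.8 ± 26.7, Sptb at 55.0 ± 22.9 and Epb42 at 38.2 ± 27.2 (SD, n = 4), and every pair of neighbours overlapped. The place of Epb41 depends on the length used, because its gene model has many alternative exons. Over the length of its principal transcript it had the highest mean of the members in WT, at 794 normalized counts per kilobase, and was passed only by Rhag and Rhd in DKO, at 641.

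**Figure D4:**
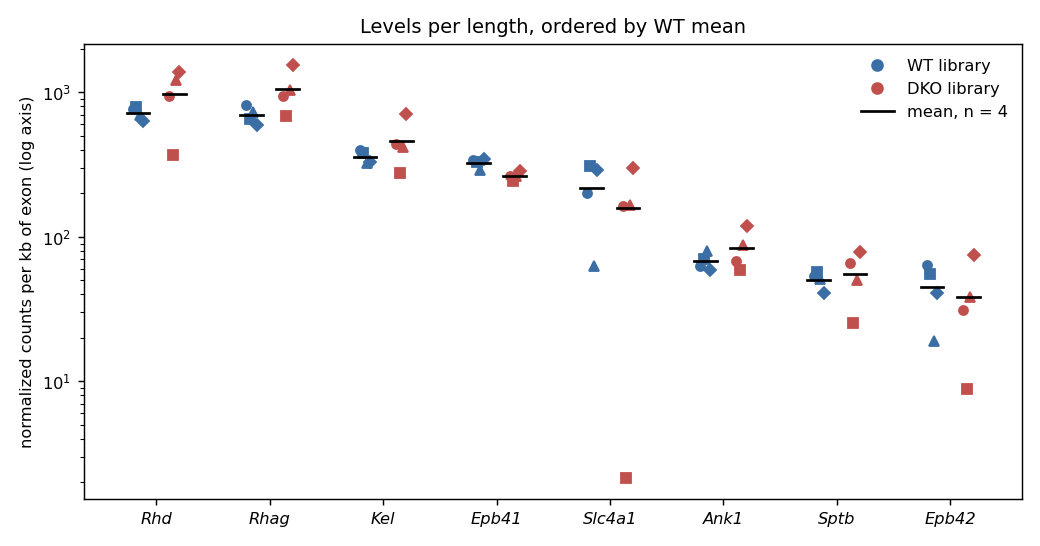
Normalized counts per kilobase of merged exons (log axis) for each member in WT (blue) and DKO (red) libraries, ordered by WT mean, with a black bar at each mean (n = 4). Rhd and Rhag lie highest, Ank1, Sptb and Epb42 lowest, and Slc4a1 in DKO 2 is at 2.14 per kilobase.

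Whether known protein partners kept their proportion was asked with the ratio of their counts within a library, which does not depend on how libraries are scaled. There were 5 pairs, and p-values were adjusted over them. The Ank1 to Sptb ratio ranged from 1.31 to 1.75 in WT and from 1.16 to 2.58 in DKO (log2 difference 0.25, exact permutation p = 0.4, adjusted 0.486). The Epb41 to Sptb ratio ranged from 7.54 to 11.1 in WT and from 4.76 to 12.51 in DKO (log2 difference -0.32, exact permutation p = 0.4, adjusted 0.486). The Rhd to Rhag ratio ranged from 0.637 to 0.825 in WT and from 0.369 to 0.799 in DKO (log2 difference -0.25, exact permutation p = 0.457, adjusted 0.486). In these 3 pairs the genotypes overlapped, and DKO 2 gave the highest or the lowest DKO ratio in each.

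The Epb42 to Slc4a1 ratio was 0.352, 0.199, 0.338 and 0.157 in WT 1 to WT 4, and 0.214, 4.2, 0.257 and 0.276 in DKO 1 to DKO 4 (log2 difference 1.02, exact permutation p = 0.486, adjusted 0.486). The value above 1 was that of DKO 2 alone, where Slc4a1 had 9 counts, and without that library the log2 difference was 0.00. The Kel to Xk ratio was 0.797, 1.22, 0.924 and 0.797 in WT 1 to WT 4, and 1.76, 1.32, 1.29 and 3.66 in DKO 1 to DKO 4. All 4 DKO libraries were above all 4 WT libraries, by 1.98-fold on average (log2 difference 0.98, exact permutation p = 0.0286, the smallest possible, and 0.143 after adjustment over the 5 pairs). Without DKO 4 the log2 difference was 0.65. Xk itself fell, from 1388, 861, 970 and 1150 normalized counts in WT 1 to WT 4 to 692, 580, 903 and 536 in DKO 1 to DKO 4 (log2 fold change -0.69, SE 0.21, edgeR adjusted p = 0.0411), while Kel did not pass the test. Xk lies on the X chromosome, and its genotypes overlapped. In DKO 3, the DKO library with the Y-linked gene Ddx3y, Xk was at 903, inside the WT range. The Kel to Xk ratio of DKO 3 was 1.29, the lowest in DKO, beside at most 1.22 in WT. The part of sex in the fall of Xk and in this ratio was not tested.

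**Figure D5:**
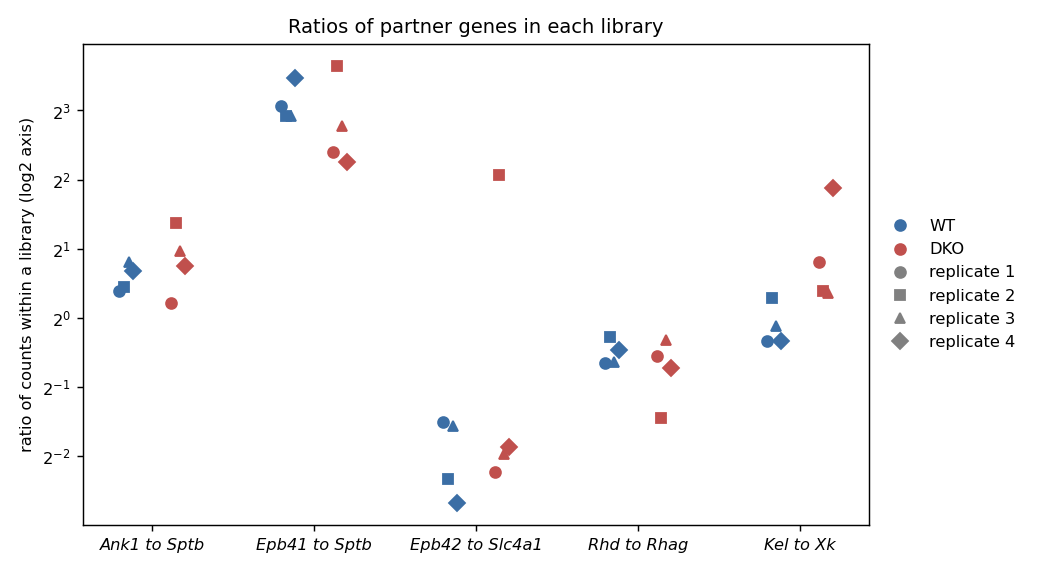
Ratio of the counts of partner genes within each library (log2 axis), WT in blue and DKO in red, with a marker shape per replicate number. The Kel to Xk ratio is between 1.29 and 3.66 in DKO and between 0.797 and 1.22 in WT, and DKO 2 stands apart from the other libraries in the Epb42 to Slc4a1 ratio.

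The upstream sequences of Rhag, Rhd and Kel are shown as those of the blood group genes, the members with the largest positive log2 fold changes, none of which passed the test. Each holds, upstream of and close to the start, a GATA motif, the kind of site read by the erythroid factor GATA1. They are the 250 bases before the RefSeq start site in GRCm38.p6, written 5′ to 3′ on the strand of the gene, with matches to the GATA motif in capitals. Rhag is at chr17:40810899-40811148 (plus strand), Rhd at chr4:134864286-134864535 (plus strand) and Kel at chr6:41704326-41704575 (minus strand).
Rhag: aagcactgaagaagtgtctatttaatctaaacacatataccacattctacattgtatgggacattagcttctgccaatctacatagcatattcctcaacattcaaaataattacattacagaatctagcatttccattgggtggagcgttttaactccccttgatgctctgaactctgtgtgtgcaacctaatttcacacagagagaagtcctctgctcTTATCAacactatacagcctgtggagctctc
Rhd: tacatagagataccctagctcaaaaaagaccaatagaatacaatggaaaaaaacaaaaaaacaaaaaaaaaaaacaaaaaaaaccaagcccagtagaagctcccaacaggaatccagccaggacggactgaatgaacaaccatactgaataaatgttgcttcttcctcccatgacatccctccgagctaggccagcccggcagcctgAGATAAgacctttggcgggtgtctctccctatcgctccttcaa
Kel: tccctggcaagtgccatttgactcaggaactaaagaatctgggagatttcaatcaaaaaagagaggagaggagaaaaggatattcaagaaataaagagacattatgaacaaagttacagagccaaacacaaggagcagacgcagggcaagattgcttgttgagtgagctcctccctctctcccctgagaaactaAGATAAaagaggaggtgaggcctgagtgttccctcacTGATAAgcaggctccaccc

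The motif searched was AGATAA or else AGATAG, together with TGATAA or else TGATAG, on either strand. The first base of the match lay 31 bases before the start in Rhag (TGATAA on the opposite strand, read as TTATCA in the line above), 43 bases before it in Rhd, and 56 and 19 bases before it in Kel. In windows of 300 bases (250 before the start and 50 from it on), 7 of the 8 windows of the 6 members with an entry held the motif, at least 1 for each of Sptb, Epb41, Epb42, Rhag, Rhd and Kel. It was found in 29.76% of all 32851 windows. The sequences CCACACCC and also CCGCACCC, bound by KLF1 and searched on either strand, were in 0 of the 8 windows and in 5.31% of all windows. Ank1 and Slc4a1 had no entry. A match describes letters in the window and not binding.

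The rest of the membrane was described with lists of genes. At the actin junction of the skeleton, 1 of 16 genes rose and 4 fell, with a median log2 fold change of -0.15. Tpm1, a tropomyosin that lines actin filaments, rose (log2 fold change 0.75, edgeR adjusted p = 0.0036), its WT libraries lying between 6959 and 7549 normalized counts and its DKO libraries between 9493 and 13541. Capza1 and Capza2, alpha subunits of the protein that caps the barbed end of actin, fell (log2 fold changes -0.91 and -0.52, edgeR adjusted p = 0.0069 and 0.0221), as did Tmod3, a tropomodulin that caps the pointed end (-0.53, edgeR adjusted p = 0.0179). Tpm3, a further tropomyosin named after its values were seen, completed the 4 (-0.45). These 5 genes did not overlap between genotypes. Nor did Capzb, named after its values were seen, which did not pass (edgeR adjusted p = 0.0648). Of all genes tested, 14.6% had every DKO library below every WT library, and the share above was not counted. Gypc, the glycophorin that protein 4.1 binds, averaged 4596 ± 436 normalized counts for WT against 4245 ± 766 for DKO (SD, n = 4 per genotype, log2 fold change -0.11, edgeR adjusted p = 0.578).

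Among 32 other red cell membrane proteins, 0 rose and 6 fell by edgeR's adjusted p, with a median log2 fold change of -0.03, which was above 0 without DKO 1 or DKO 2 (0.0055 and 0.0087) and -0.11 without DKO 4. At an unadjusted edgeR p under 0.05 there were 2 higher and 11 lower, and with DESeq2 1 higher and 10 lower. Of all 20449 genes with an adjusted p, DESeq2 counted 2777 higher and 2658 lower. The share of all genes at the unadjusted edgeR p was not counted. Named here of the 6 that fell were Fxyd5, a regulator of the sodium pump (log2 fold change -1.04), Slc14a1, the urea transporter of the Kidd blood group (-0.98) and Xk (-0.69), with edgeR adjusted p between 0.02 and 0.0411. Fxyd5 lay between 3249 and 3597 normalized counts across WT libraries and between 712 and 2295 across DKO libraries. For Slc14a1 these ranges were 4544 to 6630 and 2010 to 4261. DKO 1, the lowest library for Fxyd5, had the most mesenchyme marker counts (46716) and the fewest neutrophil and mast cell marker counts (5937). The part of these cells in its Fxyd5 value was not tested.

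Of 25 relatives of the members that serve other cells, 22 were tested, of which 2 rose and 3 fell, with a median log2 fold change of 0.06, which ranged from 0.0054 without DKO 4 to 0.22 without DKO 3. Epb41l4a, a relative of protein 4.1, rose, with WT libraries between 43.4 and 77.5 normalized counts and DKO libraries between 193 and 350 (log2 fold change 2.37, edgeR adjusted p = 0.003). Slc4a3, an anion exchanger related to band 3, rose from between 20.1 and 65.2 to between 70.01 and 431 (log2 fold change 2.27, edgeR adjusted p = 0.0311). F13a1, a transglutaminase of the protein 4.2 family found in platelets and macrophages, fell from between 2025 and 3537 to between 314 and 1261 (log2 fold change -2.03, edgeR adjusted p = 0.0069). Sptbn1, the beta spectrin of most other cells, fell from between 5392 and 7517 to between 4044 and 4534 (log2 fold change -0.61, edgeR adjusted p = 0.0061), and Sptan1, its alpha partner, named after its values were seen, also fell (-0.50). The general spectrin pair thus fell, whereas the erythroid Sptb averaged 668 ± 278 for DKO beside 615 ± 86.9 for WT (SD, n = 4). Whether Sptb and Sptbn1 differ in their response was not tested.

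Of the XK and VPS13 families, 8 of 10 genes were tested, and Vps13a, deleted by design, and Xk fell while 0 rose by edgeR. At an unadjusted p under 0.05 there were 3 lower and 0 higher, and the same counts with DESeq2. By edgeR the further gene was Xkr8 (unadjusted p = 0.0112). For this list and the next ones, the share of all genes at the unadjusted edgeR p was not counted. DESeq2 counted 2777 higher and 2658 lower of all 20449 genes with an adjusted p. The median log2 fold change was -0.13, but -0.48 without DKO 1 and 0.010 without DKO 3. Of 12 erythroid regulators, 5 rose and 0 fell by edgeR (median 0.25), with 1 lower at an unadjusted p under 0.05 and with DESeq2. Zfpm1, the GATA1 cofactor known as FOG1, rose, its WT libraries lying between 1591 and 1776 normalized counts and its DKO libraries between 2947 and 3535 (log2 fold change 0.98, edgeR adjusted p = 0.0004). Ldb1 (0.75) and Lmo2 (0.58), which bridge GATA1 and TAL1 on DNA, also rose, as did Klf3 (0.54), a repressor of the KLF family, and Epor (0.47), the erythropoietin receptor, the last named after its values were seen. Klf1 and Gata1 themselves did not pass the test (log2 fold changes 0.06 and -0.10, edgeR adjusted p = 0.857 and 0.687). Tfrc, the gene of CD71, on which the cells were sorted, averaged 3656 ± 425 normalized counts for WT against 4293 ± 754 for DKO (SD, n = 4 per genotype, log2 fold change 0.23, edgeR adjusted p = 0.253). Of the 8 progenitor markers 5 fell and 0 rose by edgeR, nor did any rise at an unadjusted p or with DESeq2 (median -0.94). They included Flt3 (log2 fold change -2.47), Cd34 (-1.94) and Kit (-1.11), receptors and surface proteins of early progenitors.

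The genes whose pattern over the 8 libraries was most like the mean of the members were sought among 13476 protein-coding genes whose mean reached 10 normalized counts for WT and also for DKO. The 10 with the highest Pearson correlation were Tent5c (r = 0.98), Bicdl1, Cap2, Prickle1, Slc22a4, Fam118a, Trpc1, Pi4k2b, Tbc1d10a and Cnn2 (r = 0.92). They are given as a description, over 8 libraries that differed in total counts and in the summed markers of other cells. Tent5c had normalized counts of 263 to 443 in the WT libraries, and 353, 148, 371 and 696 in DKO 1 to DKO 4, with the order of DKO 2 and DKO 4 that the members had. None of the 10 passed the comparison of WT with DKO (edgeR adjusted p between 0.511 and 0.988). The members' mean standardized log2 CPM, by which the 10 were chosen, was lowest in DKO 2 (-1.55) and highest in DKO 4 (1.28). The WT libraries lay between these. The shared order and the lack of a genotype difference thus follow from the choice and are not separate results.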

How the data were processed

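Total RNA of sorted S0 cells (E12.5 fetal liver, 4 WT and 4 DKO libraries) was amplified by template switching and sequenced. Per the labels and the paper's methods, the authors trimmed reads with fastp 0.21.0, mapped them to mm10 with HISAT2 2.2.1, removed alignments of quality below 20 and deposited whole-number counts per gene from StringTie 1.3.3b and its prepDE script, neither normalized nor pooled. That script derives counts from coverage, so totals can differ from read numbers. The strand setting is not given in the sources used here, and isoforms were not separated.

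Groups and replicate numbers came from the labels and the 8 columns were matched by name. Of 52636 identifiers, 52489 matched a symbol in a GENCODE annotation of GRCm38. The count analysis ran in edgeR 4.0.16 under R 4.3.3 (filterByExpr, TMM, robust quasi-likelihood test, no covariate, Benjamini-Hochberg over 17378 genes) after the steps were tested on simulated data. Exact two-sided permutation tests used log2 CPM over 70 arrangements, and ratios used counts plus 1. The authors' DESeq2 was an alternative here (1.42.0), beside other scalings, filters, counts divided by 2, libraries left out and a replicate block. Named genes were all members, at most 4 per other list (largest changes past the test), Xk, Gypc, Tfrc, Klf1 and Gata1, and the 10 genes most like the members. Members, gene lists and tests were chosen with earlier results of these data known. Libraries of 1 genotype differed by at least 18.3 in chi-square per gene, so none was a copy. Promoter windows came from RefSeq (GRCm38.p6). At these totals the spread between libraries, not counting error, limits the precision, except for Slc4a1 in DKO 2 (9 counts). Some genes of the lists that the rule would name are counted but not reported here by name.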

Additional observations from a re-analysis of the deposited data

Results flagged for a closer look

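Of 26 groups of 4 libraries examined for a value far from the others, 1 held such a library. The rule flags about 1 in 20 groups by chance if groups are independent. These groups reuse the same 8 libraries, so that rate cannot decide whether chance gave this value. The ratio of Epb42 to Slc4a1 in DKO 2 was 4.2, against 0.214 to 0.276 in the other 3 DKO libraries, and the gap to its neighbour took up 0.985 of the whole range. The same library had 10.5 normalized counts of Slc4a1 and 47.7 of Epb42, both the lowest of the 8, and the smallest sum of adult globins (7733).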

How the results depend on the processing

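The number of members past the test was 1 in 11 of 19 alternatives. It was 2 with DESeq2 (Epb41 and Rhag) and with WT 3 and DKO 2 both left out (Epb41 and Rhd, chosen after seeing the data), and 0 with upper-quartile scaling and with the replicate block (Epb41 adjusted p = 0.0702). Leaving out 1 library at a time it lay between 0 (without WT 1, WT 2 or WT 4) and 2 (without DKO 2, Rhag and Rhd). With DKO 3 as the only DKO library, the 1 with the Y-linked gene, which is assumed to vary like WT (chosen after seeing the data), Rhd passed (adjusted p = 0.0166), Epb41 did not (-0.33, adjusted p = 0.0845), and Sptb was at -0.033. With 1 library left out at a time, Sptb ranged from -0.10 (without DKO 4) to 0.35, and Epb42 from -0.78 to 0.095 (without DKO 2). The fold changes of Ank1, Slc4a1, Epb41, Rhag, Rhd and Kel kept their direction in every alternative that gave a value, but not their size. With 1 library left out at a time Ank1 ranged from 0.082 to 0.43, Slc4a1 from -0.97 to -0.049, Rhag from 0.34 to 0.75, Rhd from 0.23 to 0.71 and Kel from 0.082 to 0.54, the extremes in each being without DKO 4 and without DKO 2. The median of the XK and VPS13 partners was -0.48 without DKO 1. Slc4a1 gave none when at least 10 counts were required in every library, since DKO 2 had 9. The exact permutation test passed 0 members and 0 ratios after adjustment in every alternative run. At an unadjusted p it passed 1 of each (Epb41, and Kel to Xk) in the main analysis. A lone member or ratio at the smallest possible p (0.0286) cannot fall below 0.05 after adjustment. For ratios under the replicate block, the smallest possible p was itself above 0.05. The lack of passing members and ratios was thus largely set by the number of libraries, and does not show that the result is stable. Without DKO 2 the log2 ratio of Epb41 to Sptb was -0.61 (unadjusted exact permutation p = 0.0286). Same-numbered WT and DKO libraries did not deviate together (correlations -0.09 to 0.04), so the replicate numbers do not pair them. Upper-quartile scaling called 2492 genes higher and 1242 lower in all, beside 1867 and 1878. The replicate block called 1026 and 1083, and leaving out WT 1 called 858 and 898. The low count limited Slc4a1 in DKO 2, which had 9 counts of it. The total of that library (38681062) was above that of DKO 3 (36981439), which had 664 counts of Slc4a1. The spread between 4 libraries limited the rest.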
